A study of Mus musculus with 12 samples.

Results

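RNA of lung epithelial cells taken from mice 1 day after lipopolysaccharide (LPS), a model of acute lung inflammation, was compared with RNA of cells isolated in the same way 4 weeks after bleomycin, a model of lung injury and fibrosis. The comparison used 5 of the 12 libraries of the series: the 3 LPS libraries, and 4-week library 1 and a second 4-week library whose column number matched none of the sample titles, called the unnumbered library here. Library 2 of the 4-week group is shown apart, because it listed 6147 of the 13525 genes shared by both tables (45.4%) at 0, whereas the remaining LPS, 4-week and saline libraries listed 6 to 79 genes at 0 each. Genes were joined on their identifiers in the tables, and all 13525 shared genes were used.

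All mice were C57BL/6, a standard inbred strain, and 8 to 10 weeks old. The LPS mice had received 2 mg/kg of LPS into the trachea 1 day earlier, and the bleomycin mice 1.5 U/kg of bleomycin by the same route 4 weeks earlier. The 3 control libraries, called saline here after the design text of the series, carry values that both tables share. Every sample came from enzymatically digested lung after lysis of red cells. Magnetic beads removed cells with CD16/32, CD45, CD31, CD90, Ter119 or PDGFRα, surface proteins of leukocytes, endothelium, stroma and red cells. Cells with EpCAM, an epithelial adhesion protein, were then kept. Whether each library stands for its own animal, for several pooled animals or for a repeat of 1 animal's RNA is not in the labels. The p-values therefore measure the spread between libraries, whatever its source. The agents and the times differ together, so the effect of the agent and the effect of the time since exposure cannot be told apart.

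LPS is a glycolipid of the outer membrane of Gram-negative bacteria that is sensed by Toll-like receptor 4, which turns on NF-kB, the factor behind many cytokine, chemokine and acute phase genes, and interferon regulatory factors, which start a type I interferon response. Bleomycin breaks DNA; in the mouse lung a single dose kills alveolar epithelium, sets off inflammation, and is followed over weeks by deposition of collagen-rich matrix under the influence of transforming growth factor beta (TGF-β). The alveolar epithelium consists of type 2 (AT2) cells, which make surfactant and renew the lining, and flat type 1 (AT1) cells, across which gas is exchanged; club, goblet and ciliated cells line the airways and also carry EpCAM.

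Expression was deposited as FPKM, a level corrected for transcript length and library size, without read counts, so the depth of each library is unknown. A gene was tested if 2 or more of the 5 libraries reached 1 FPKM, which 12377 genes did. Of these, 1985 (16.0%) differed between LPS and 4 weeks of bleomycin at an adjusted p under 0.05 (limma on log2(FPKM + 1), two-sided, Benjamini-Hochberg). Among them 949 (7.67% of all tested) were higher after LPS and 1036 (8.37%) were lower. The larger changes were mostly on the higher side: 308 genes were higher by more than 2 on the log2 scale and 99 were lower by more than 2. The median log2 fold change over all genes tested was -0.11, in LPS over bleomycin, as for every fold change given here. Each fold change is on the log2(FPKM + 1) scale, which understates differences at low FPKM, and has its standard error (SE) after the ± sign. The 3 LPS libraries lay between 36.3 and 69.8 on the first principal component of these 5 and the 3 saline libraries, which held 68.8% of the variance, whereas the 4-week libraries lay at -26.9 and -33.8, among the saline libraries at -42.7 to -30.9 or beside them.

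The number of calls depended on single libraries. It was 3612 without LPS library 1, 902 without LPS library 3, 927 without 4-week library 1 and 948 without the unnumbered 4-week library, and 675 genes (457 higher, 218 lower) held their call in all 5 fits that left out 1 library. The genes past the threshold whose levels are given are among these 675 unless other p-values stand beside them, except C1qtnf3 and Eda2r, which passed the filter only with both 4-week libraries. Genes named without a level need not be among the 675. The filter was applied anew in each fit that left out 1 library, and a gene no longer tested counted as not held. A gene that reached 1 FPKM only in the 2 4-week libraries could thus not be among the 675. One that reached it in all 3 LPS libraries stayed tested in every such fit, so the split into higher and lower depends in part on the filter. With 4-week library 2 kept in, 85 genes were called, 82 of them higher after LPS. That library stood below all 3 LPS libraries for 899 of the 949 genes called higher (94.7%), at 0 for 476 of them; it stood above all 3 LPS libraries for 310 of the 1036 genes called lower (29.9%) and at 0 for 410.

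Acute phase and antimicrobial genes were among those furthest above the 4-week level 1 day after LPS. Orm1 (chr4:63344560-63348163, plus strand in the GRCm38 build), which encodes the plasma acute phase protein orosomucoid, had 219, 396 and 342 FPKM after LPS, against 2.24 and 2.09 at 4 weeks of bleomycin and 0.648, 0.624 and 0.93 in saline. The LPS libraries were far above both other groups, and the 4-week libraries stood slightly above saline. For Orm1 the log2 fold change was 6.62 ± 0.29 (limma adjusted p = 1.28e-06). Saa3 (chr7:46711998-46715700, minus strand), the serum amyloid A gene that mouse lung and macrophages express, had 1149, 3055 and 2548 FPKM after LPS, against 45.5 and 28.7 at 4 weeks of bleomycin and 2.71, 3.9 and 3.04 in saline. Saa3 gave a log2 fold change of 5.80 ± 0.44 (limma adjusted p = 1.61e-05). Saa3 thus stood above saline in both injuries, by far the more after LPS. Lcn2, lipocalin 2, which withholds iron from bacteria by binding their siderophores, had 1035, 1920 and 1678 FPKM after LPS, against 131 and 120.4 at 4 weeks of bleomycin and 52.9, 84.4 and 79.2 in saline. Lcn2 was higher after LPS by 3.56 ± 0.36 on the log2 scale (limma adjusted p = 8.93e-05). Cfb, complement factor B of the alternative pathway, had 523, 455 and 446 FPKM after LPS, against 32.2 and 36.1 at 4 weeks of bleomycin. For Cfb the log2 fold change was 3.76 ± 0.27 (limma adjusted p = 1.27e-05). Serpina3m, a serine protease inhibitor of the acute phase, had 114, 114 and 79.6 FPKM after LPS, against 2.96 and 4.77 at 4 weeks of bleomycin. Serpina3m gave a log2 fold change of 4.42 ± 0.28 (limma adjusted p = 8.97e-06). Of 24 tested genes of the acute phase and antimicrobial list, 19 were higher after LPS and none was lower, where 7.67% of all genes were called higher; 14 held in all 5 fits with a library left out, and the median log2 fold change was 2.09. The list holds S100a8, S100a9 and Lcn2, which neutrophils also make. Reads of the near-identical Orm, Saa and Serpina3 copies may have been divided among them in ways that the tables do not show.

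A further 230 genes were present in the LPS table but not in the 4-week table, so no fold change was computed for them; 8 of these averaged at least 10 FPKM after LPS. Saa1, another serum amyloid A gene, had 62, 83.8 and 88.7 FPKM after LPS and at most 0.27 FPKM in saline. Csf3, the granulocyte colony stimulating factor, had 54.7, 64.6 and 54.5 FPKM after LPS and at most 0.572 FPKM in saline. In turn 142 genes were present only in the 4-week table, none of which averaged 10 FPKM in the 2 4-week libraries. Among these were Thbs4, a matrix thrombospondin, at 6.04 and 5.48 FPKM, Krt5, a keratin of basal cells, at 6.45 and 3.35 FPKM, and Grem1, a secreted inhibitor of bone morphogenetic proteins, at 3.99 and 4.2 FPKM. These genes outside the shared set were chosen after their values were seen. Each table kept genes with a mean of at least 0.5 FPKM in one of its groups, so absence from a table marks a low level there.

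**Figure D1:**
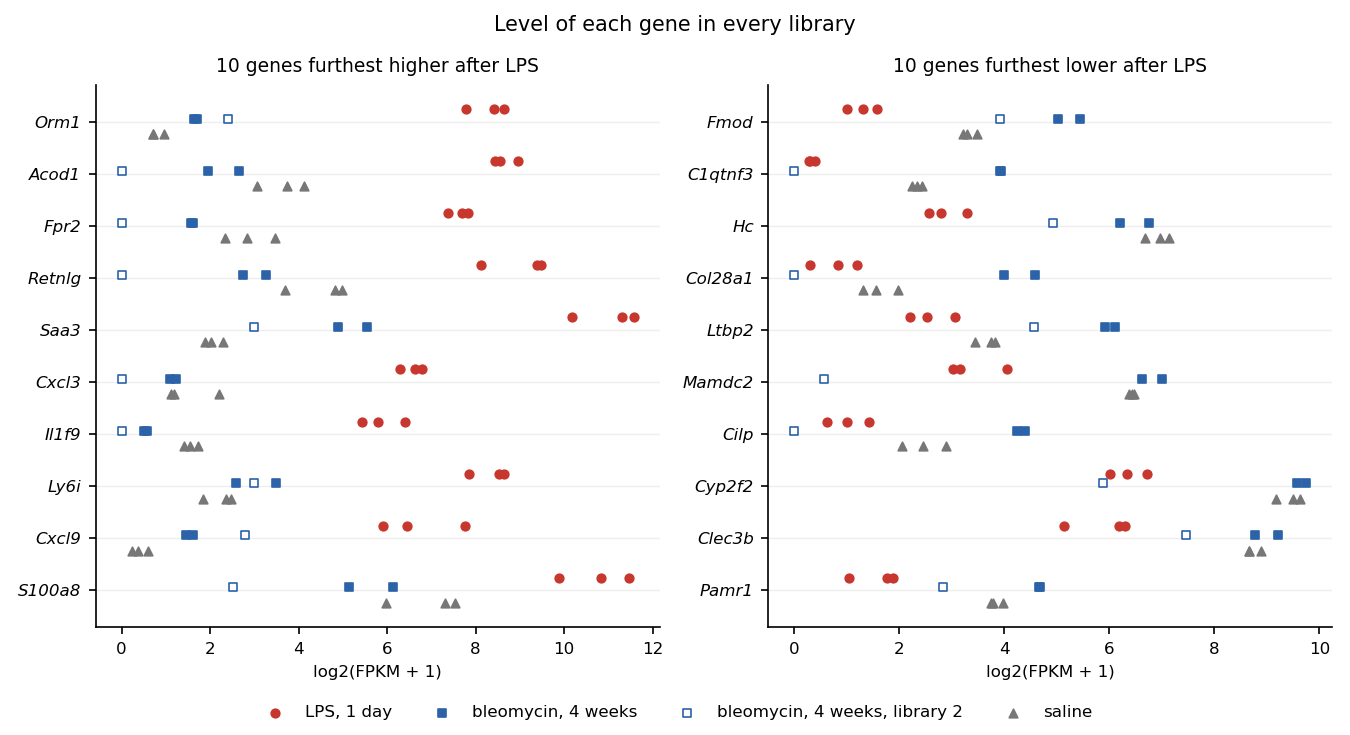
Level of the 10 genes furthest higher and the 10 furthest lower after LPS, as log2(FPKM + 1), in each library: LPS (circles), bleomycin at 4 weeks (filled squares; library 2 open) and saline (triangles). In the left panel every LPS library lies above every other library, and in the right panel every LPS library lies below both filled squares, while the open squares of C1qtnf3, Col28a1, Mamdc2, Cilp and Cyp2f2 lie below their LPS libraries.

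Interferon-stimulated genes were higher after LPS almost throughout. Rsad2, whose product viperin makes a chain-terminating nucleotide that stops viral RNA synthesis, had 49.6, 56.1 and 101 FPKM after LPS, against 1.39 and 2.23 at 4 weeks of bleomycin and 2.93, 1.65 and 1.84 in saline. The LPS libraries stood well clear of the others, and the 4-week and saline libraries overlapped. Rsad2 was higher after LPS by 4.58 ± 0.33 on the log2 scale (limma adjusted p = 1.27e-05). Ifit3, which acts in the complex that recognises foreign RNA ends, had 159, 141 and 183 FPKM after LPS, against 15.3 and 18.6 at 4 weeks of bleomycin. For Ifit3 the log2 fold change was 3.17 ± 0.26 (limma adjusted p = 2.43e-05). Zbp1, a sensor of left-handed nucleic acid, had 45, 47.1 and 76.4 FPKM after LPS, against 3.28 and 2.93 at 4 weeks of bleomycin. Zbp1 gave a log2 fold change of 3.76 ± 0.29 (limma adjusted p = 1.61e-05). Of 31 tested members of the interferon-stimulated list, 26 were higher, none was lower and 21 held in all fits with a library left out; the median log2 fold change was 2.09. Against saline the list's median was 2.00 after LPS and -0.10 at 4 weeks of bleomycin.

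The guanylate binding proteins (GBPs) and immunity-related GTPases (IRGs), large GTPases induced by interferons that attack vacuoles holding microbes, had the second largest median of the 40 lists, 2.86. Of 19 tested, 17 were higher after LPS and none was lower, and 13 held throughout. Gbp2 had 359.8, 232 and 592 FPKM after LPS, against 20.3 and 27.8 at 4 weeks of bleomycin and 40.7, 27.2 and 24.6 in saline. Gbp2 was higher after LPS by 3.89 ± 0.38 on the log2 scale (limma adjusted p = 6.62e-05). Igtp, an IRG known in mice for control of intracellular parasites, had 149, 120.1 and 205 FPKM after LPS, against 11 and 12.8 at 4 weeks of bleomycin and 27.8, 16.8 and 16.4 in saline. For Igtp the log2 fold change was 3.59 ± 0.28 (limma adjusted p = 2.21e-05). In both, the lowest LPS library was several times above the highest of the other 5 libraries, and LPS library 3 was the highest. The same library was the highest of the 3 for Cxcl9 and Cxcl10, the chemokines that interferon-gamma induces and that draw T cells: Cxcl9 had 86.1, 58.6 and 217 FPKM after LPS, against 2.06 and 1.76 at 4 weeks of bleomycin. Cxcl10 had 308, 192 and 688 FPKM after LPS, against 45.8 and 44.7 at 4 weeks of bleomycin. Cxcl10 gave a log2 fold change of 2.90 ± 0.45 (limma adjusted p = 0.00137).

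Promoters of these genes are printed because the members moved together and because the letters of the interferon-stimulated response element (ISRE), a site that interferon regulatory factors bind, can be looked for in them. The window runs from 250 bases before to 50 bases after the annotated start, from RefSeq, build GRCm38.p6. The motif searched was GAAANNGAAA on both strands, and its matches are in capitals (as TTTCNNTTTC where the match lies on the other strand).
Rsad2 (chr12:26456403-26456702, minus strand): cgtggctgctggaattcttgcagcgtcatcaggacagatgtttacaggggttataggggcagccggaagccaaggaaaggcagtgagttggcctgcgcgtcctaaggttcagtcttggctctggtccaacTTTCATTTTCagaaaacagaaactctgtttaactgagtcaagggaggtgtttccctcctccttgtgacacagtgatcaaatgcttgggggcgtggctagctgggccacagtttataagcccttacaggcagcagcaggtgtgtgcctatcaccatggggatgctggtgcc
Gbp2 (chr3:142620413-142620712, plus strand): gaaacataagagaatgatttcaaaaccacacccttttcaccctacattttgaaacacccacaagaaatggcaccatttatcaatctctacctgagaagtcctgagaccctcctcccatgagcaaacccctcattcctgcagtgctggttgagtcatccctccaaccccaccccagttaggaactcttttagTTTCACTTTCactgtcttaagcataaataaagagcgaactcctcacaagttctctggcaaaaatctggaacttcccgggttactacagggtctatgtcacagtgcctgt
Igtp (chr11:58199306-58199605, plus strand): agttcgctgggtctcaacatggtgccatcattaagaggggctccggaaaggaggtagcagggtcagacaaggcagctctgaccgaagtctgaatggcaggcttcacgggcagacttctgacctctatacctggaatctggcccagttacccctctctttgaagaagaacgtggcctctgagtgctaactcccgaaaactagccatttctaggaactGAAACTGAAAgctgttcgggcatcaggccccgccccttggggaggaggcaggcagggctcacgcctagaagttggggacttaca
Of 19 tested GBP and IRG genes 12 had a promoter in the table, and 10 of these (83.3%) held the motif; among the interferon-stimulated genes it was 12 of 23 (52.2%). Over all 32851 promoters of the table the share was 3.44%, and over the 9413 tested genes with a promoter 3.93%. Other lists searched held it too: matrix and TGF-β response in 3 of 21 (14.3%), chemokines in 2 of 18 (11.1%), acute phase and antimicrobial in 1 of 18 (5.56%) and neutrophil in 1 of 23 (4.35%). The fibroblast and smooth muscle list held it in 0 of 21. A share above that of all genes was thus not limited to lists higher after LPS. A match describes these letters only and is no evidence of binding.

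Most chemokine genes, whose products recruit leukocytes, were higher after LPS. Cxcl3, a ligand of the neutrophil receptor CXCR2, had 98.2, 77.8 and 110.3 FPKM after LPS, against 1.34 and 1.15 at 4 weeks of bleomycin and 3.6, 1.27 and 1.17 in saline. Every LPS library was far above every other library. Cxcl3 was higher after LPS by 5.41 ± 0.25 on the log2 scale (limma adjusted p = 1.28e-06). Cxcl13, which draws B cells, had 108, 70.9 and 99.1 FPKM after LPS, against 4.59 and 5.11 at 4 weeks of bleomycin. For Cxcl13 the log2 fold change was 3.98 ± 0.26 (limma adjusted p = 1.09e-05). Of 26 tested chemokine genes, 17 were higher after LPS, all of which held with any library left out, and the median was 2.31. The 2 that were lower were Ccl11 (eotaxin, which draws eosinophils) and Cxcl15 (lungkine, made by lung epithelium). Of all genes 7.67% were called higher and 8.37% lower. Ccl11 had 18.6, 9.55 and 14.2 FPKM after LPS, against 34.2 and 26.2 at 4 weeks of bleomycin. Ccl11 gave a log2 fold change of -1.08 ± 0.30 (limma adjusted p = 0.034), and its adjusted p was 0.131 without LPS library 3, 0.23 without 4-week library 1 and 0.063 without the unnumbered 4-week library. Cxcl15 had 371, 344 and 321 FPKM after LPS, against 684 and 715 at 4 weeks of bleomycin. Cxcl15 was lower after LPS, with a log2 fold change of -1.02 ± 0.31 (limma adjusted p = 0.0455), and its adjusted p was 0.0604 without LPS library 2, 0.171 without LPS library 3, 0.257 without 4-week library 1 and 0.323 without the unnumbered 4-week library, and 0.132 with libraries scaled by median ratio, a scaling under which Ccl11 missed the threshold too (0.0604).

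The promoter of Cxcl3 held the NF-kB letters GGGANTTTCC, searched on both strands in the same kind of window and shown in capitals; this motif and the ISRE letters cannot share their full sequence.
Cxcl3 (chr5:90785851-90786150, plus strand): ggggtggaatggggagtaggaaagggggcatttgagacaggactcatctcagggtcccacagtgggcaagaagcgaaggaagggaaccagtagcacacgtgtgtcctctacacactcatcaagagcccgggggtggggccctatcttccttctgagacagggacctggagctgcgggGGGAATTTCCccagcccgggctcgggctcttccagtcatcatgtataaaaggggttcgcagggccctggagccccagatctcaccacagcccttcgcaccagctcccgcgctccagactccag
The NF-kB letters were in the promoters of 3 of 18 chemokine genes with a promoter in the table (16.7%), against 0.411% of all promoters and 0.531% of those of tested genes. They were in 2 of 18 acute phase and antimicrobial genes (11.1%) and 1 of 12 GBP and IRG genes (8.33%). In the interferon-stimulated, neutrophil, fibroblast and matrix lists the number was 0.

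Many cytokine, NF-kB feedback and antigen processing genes were also higher after LPS. Il1a, the alarm cytokine interleukin 1 alpha, had 316, 254 and 317 FPKM after LPS, against 4.25 and 15.1 at 4 weeks of bleomycin. For Il1a the log2 fold change was 5.01 ± 0.41 (limma adjusted p = 2.43e-05). Il1rn, the receptor antagonist that blocks it, had 47.3, 42.8 and 59.1 FPKM after LPS, against 3.2 and 2.83 at 4 weeks of bleomycin. Il1rn gave a log2 fold change of 3.65 ± 0.25 (limma adjusted p = 1.27e-05). Il1f9, which encodes the epithelial cytokine interleukin 36 gamma, had 54.4, 84.2 and 42.2 FPKM after LPS, against 0.428 and 0.482 at 4 weeks of bleomycin. Il23a, the subunit specific to interleukin 23, had 23.1, 21.2 and 32.4 FPKM after LPS, against 0.423 and 0.79 at 4 weeks of bleomycin. In all 4 genes the LPS libraries stood apart from both 4-week libraries. Of 22 tested cytokine and colony stimulating factor genes, 11 were higher and none was lower, with 9 holding throughout. Among 25 NF-kB pathway and feedback genes 14 were higher and none was lower (10 throughout), among them Nfkbie, an inhibitor that holds NF-kB in the cytoplasm (2.25 ± 0.25, SE), Tnip1, a partner of the ubiquitin editor A20 (2.16 ± 0.23), and the mitochondrial superoxide dismutase Sod2 (2.60 ± 0.26).

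The machinery of MHC class I, which displays peptides from inside the cell, was higher in 16 of 20 genes, with none lower and a median of 1.50; 10 held throughout. For comparison, 7.67% of all genes were called higher. Tap1, the peptide transporter, had 35.4, 28 and 40.3 FPKM after LPS, against 3.88 and 4.83 at 4 weeks of bleomycin. Tap1 was higher after LPS by 2.72 ± 0.26 on the log2 scale (limma adjusted p = 6.18e-05). Psmb8, a catalytic subunit of the immunoproteasome, had 96.8, 164 and 175 FPKM after LPS, against 23.1 and 23.5 at 4 weeks of bleomycin. For Psmb8 the log2 fold change was 2.55 ± 0.30 (limma adjusted p = 0.000249). Nlrc5, the transcriptional activator of class I genes, had 11.6, 8.03 and 12.9 FPKM after LPS, against 1.26 and 1.59 at 4 weeks of bleomycin. Nlrc5 gave a log2 fold change of 2.27 ± 0.28 (limma adjusted p = 0.00033). None of the 11 MHC class II genes, whose products display peptides from outside the cell, passed the threshold (limma); their median was 0.15 (-0.06 under quantile normalization), and 3 were higher and 1 lower at an unadjusted p under 0.05. The proteasome list had 8 of 31 genes higher and none lower, with a median of 0.75, but the count was 17 without LPS library 1, 4 without LPS library 2, 1 without LPS library 3, 0 without 4-week library 1 and 0 without the unnumbered 4-week library. It was 3 with median-ratio scaling.

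For 20 of the 40 lists members were called in 1 direction only; in the other direction at most 1 tested member of such a list had an unadjusted p under 0.05 (limma).

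**Figure D2:**
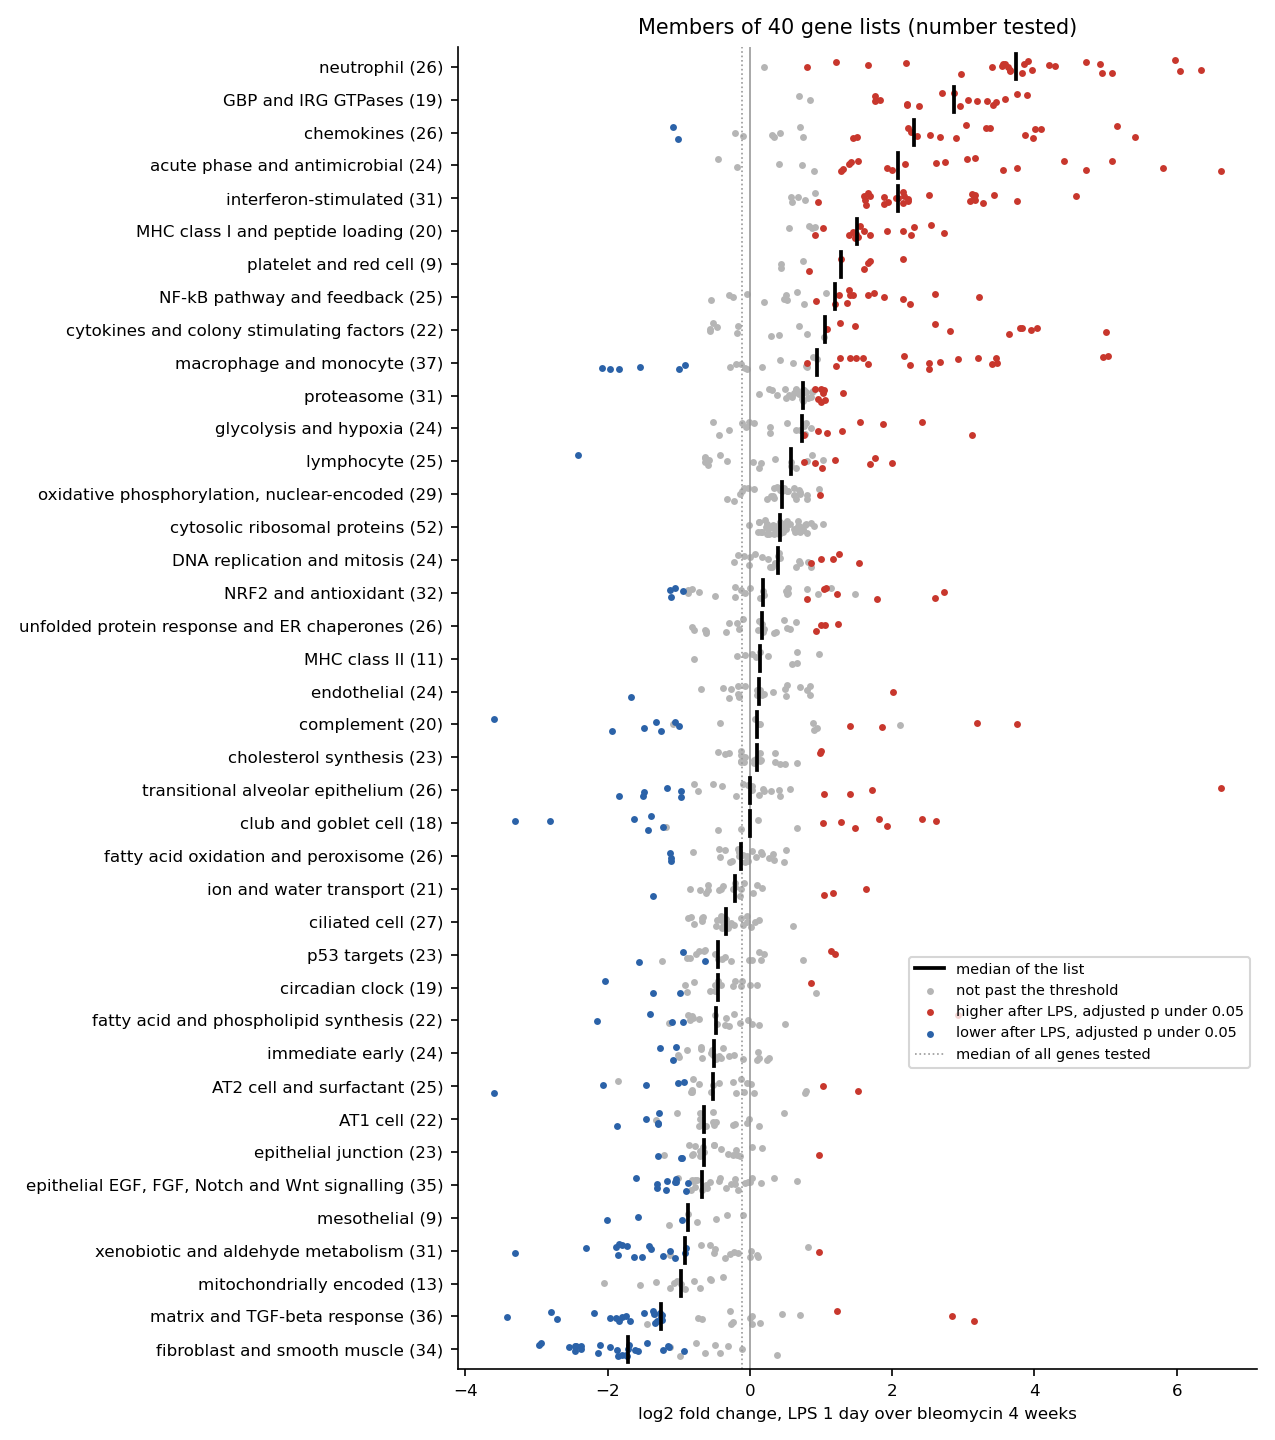
Log2 fold change, LPS 1 day over bleomycin 4 weeks, of each tested member of 40 gene lists, sorted by the list's median (black bar); red points were higher and blue points lower after LPS at an adjusted p under 0.05, and grey points were not past it. The medians run from 3.74 (neutrophil) to -1.71 (fibroblast and smooth muscle), and the dotted line is the median of all genes tested, -0.11.

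The largest median of the 40 lists was that of neutrophil genes, 3.74: 25 of 26 were higher after LPS, 22 of them with any library left out. S100a8, a subunit of calprotectin and one of the most abundant neutrophil products, had 946, 1820 and 2814 FPKM after LPS, against 69.4 and 34.3 at 4 weeks of bleomycin and 185, 61.8 and 158 in saline. S100a8 was higher after LPS by 5.09 ± 0.47 on the log2 scale (limma adjusted p = 5.43e-05). Retnlg, resistin-like gamma, had 279, 664 and 709 FPKM after LPS, against 8.64 and 5.73 at 4 weeks of bleomycin and 27.3, 12 and 30.4 in saline. For Retnlg the log2 fold change was 5.98 ± 0.40 (limma adjusted p = 1.09e-05). Of the receptors for formylated bacterial peptides, Fpr1 had 120.1, 157 and 158 FPKM after LPS, against 3.29 and 4.31 at 4 weeks of bleomycin. The related Fpr2 had 165, 206 and 224 FPKM after LPS, against 1.95 and 2.05 at 4 weeks of bleomycin. Acod1, the enzyme that makes itaconate in activated myeloid cells, had 345, 373 and 495 FPKM after LPS, against 2.9 and 5.25 at 4 weeks of bleomycin and 16.4, 7.31 and 12.3 in saline. Acod1 gave a log2 fold change of 6.34 ± 0.29 (limma adjusted p = 1.28e-06). For Retnlg and Acod1 both 4-week libraries lay below every saline library, and for S100a8 the unnumbered library did. The list's FPKM summed to 6133 to 12884 FPKM in the LPS libraries, 526 and 558 FPKM in the 4-week libraries and 613 to 1152 FPKM in saline, so its sum at 4 weeks was below every saline library. Ly6g, a surface marker of mouse neutrophils, had 4.47, 18 and 10.4 FPKM after LPS and was listed at 0 in both 4-week libraries, as was Camp, a granule protein. These levels are a measure of RNA in the sample: more or fewer cells of a type and more or less of the RNA per cell cannot be told apart in bulk libraries, here or for any list below. The part of leukocytes that escaped depletion in the acute phase, interferon, chemokine, cytokine and NF-kB results above was not tested.

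Macrophage and monocyte genes were called in both directions. Of 37 tested, 19 were higher after LPS, 6 were lower and 12 did not pass the test, with 13 and 3 holding throughout. Marco, a scavenger receptor for bacteria, had 84.6, 109 and 68 FPKM after LPS, against 2.15 and 1.21 at 4 weeks of bleomycin and 1.94, 1.46 and 3.22 in saline. Marco was higher after LPS by 5.04 ± 0.29 on the log2 scale (limma adjusted p = 4.99e-06). Arg1, arginase, had 73.6, 97.8 and 65.1 FPKM after LPS, against 1.13 and 1.97 at 4 weeks of bleomycin and 2.09, 2.49 and 1.98 in saline. For Arg1 the log2 fold change was 4.97 ± 0.28 (limma adjusted p = 4.99e-06). Msr1, another scavenger receptor, had 22.6, 16.4 and 19 FPKM after LPS, against 0.969 and 1.42 at 4 weeks of bleomycin. Msr1 gave a log2 fold change of 3.21 ± 0.26 (limma adjusted p = 2.75e-05). In each of the 3 genes the 4-week libraries overlapped or adjoined saline and the LPS libraries stood alone.

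The 6 macrophage genes that were lower after LPS were Mmp12, Spp1, Fn1, Apoe, Gpnmb and Ctsk. Mmp12, the macrophage elastase, had 1.27, 0.682 and 0.797 FPKM after LPS, against 5.41 and 9.14 at 4 weeks of bleomycin and 0.609, 0.487 and 0.798 in saline. Both 4-week libraries were above all others, and the LPS and saline libraries overlapped. Mmp12 was lower after LPS, with a log2 fold change of -2.09 ± 0.28 (limma adjusted p = 0.000548). Spp1, osteopontin, a secreted phosphoprotein that macrophages and injured epithelium make, had 76.8, 67.3 and 64.4 FPKM after LPS, against 237 and 316 at 4 weeks of bleomycin and 42, 38.9 and 37.9 in saline. For Spp1 the log2 fold change was -1.97 ± 0.27 (limma adjusted p = 0.000654). Spp1 was above saline in all 5 libraries of the test and furthest above it at 4 weeks. Apoe, the lipid carrier apolipoprotein E, had 121, 195 and 169.6 FPKM after LPS, against 468 and 463 at 4 weeks of bleomycin and 283, 351 and 289 in saline. Its LPS libraries lay below saline and its 4-week libraries above. Apoe gave a log2 fold change of -1.54 ± 0.31 (limma adjusted p = 0.00635). Fn1, fibronectin, which fibroblasts also make, had 82.8, 42.8 and 19.9 FPKM after LPS, against 134 and 171 at 4 weeks of bleomycin and 61.5, 59.7 and 74 in saline. Fn1 was lower after LPS, with a log2 fold change of -1.85 ± 0.47 (limma adjusted p = 0.0223), and its adjusted p was 0.0957 without LPS library 3 and 0.0507 without the unnumbered 4-week library. Gpnmb, a glycoprotein of lipid-laden macrophages, had 10.7, 11.8 and 6.15 FPKM after LPS, against 19 and 19.7 at 4 weeks of bleomycin and 3.85, 4.24 and 4.63 in saline. For Gpnmb the log2 fold change was -0.99 ± 0.30 (limma adjusted p = 0.0449), and its adjusted p was 0.156 without LPS library 3, 0.172 without 4-week library 1 and 0.199 without the unnumbered 4-week library. Ctsk, the collagen-cutting protease cathepsin K, had 56.6, 49.6 and 37 FPKM after LPS, against 98.3 and 81.9 at 4 weeks of bleomycin and 21.3, 23.7 and 24.2 in saline. Ctsk gave a log2 fold change of -0.92 ± 0.27 (limma adjusted p = 0.043), and its adjusted p was 0.177 without LPS library 3, 0.283 without 4-week library 1 and 0.131 without the unnumbered 4-week library. In 4-week library 2 Spp1 had 4.75 FPKM and Mmp12 was listed at 0, whereas Apoe had 812 FPKM. The whole list summed to 6191 to 8421 FPKM in the LPS libraries, 5634 and 6011 FPKM in the 4-week libraries and 4869 to 5416 FPKM in saline. Lyz2, which stands in the AT2 list too, made up the largest part of these sums and hides differences of the other members. It had 2912, 4117 and 3850 FPKM after LPS, 3802 and 3995 at 4 weeks and 3639, 4366 and 4169 in saline. Against saline the list's median log2 difference was 1.57 after LPS and 0.43 at 4 weeks of bleomycin.

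**Figure D3:**
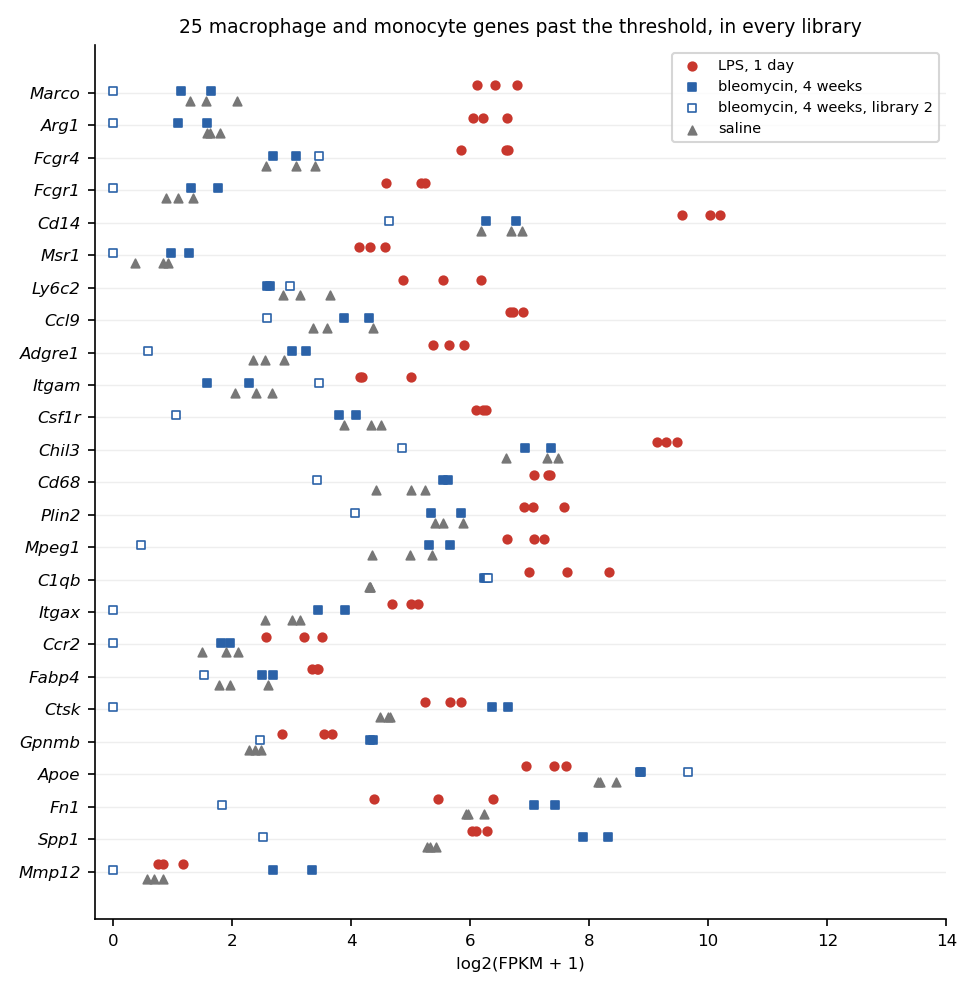
The 25 macrophage and monocyte genes past the threshold, as log2(FPKM + 1), in each library: LPS (circles), bleomycin at 4 weeks (filled squares; library 2 open) and saline (triangles). From Marco to Fabp4 the LPS libraries lie to the right of the filled squares, and from Ctsk to Mmp12 the filled squares lie to the right.

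Among lymphocyte genes, some of those of cytotoxic cells were higher after LPS. Nkg7, a granule protein of cytotoxic cells, had 44, 90.4 and 52.3 FPKM after LPS, against 13.9 and 14.3 at 4 weeks of bleomycin and 32.3, 15.1 and 16.5 in saline. Nkg7 was higher after LPS by 2.00 ± 0.31 on the log2 scale (limma adjusted p = 0.00152). Gzma, granzyme A, had 110.3, 183 and 167 FPKM after LPS, against 49.2 and 39 at 4 weeks of bleomycin and 85.7, 39.4 and 47.5 in saline. For Gzma the log2 fold change was 1.75 ± 0.30 (limma adjusted p = 0.00237). Jchain, which joins the units of secreted IgA and IgM, went the other way, with 7.94, 3.7 and 8.75 FPKM after LPS, against 49.2 and 30.3 at 4 weeks of bleomycin and 43.6, 14.7 and 12.1 in saline. Jchain gave a log2 fold change of -2.42 ± 0.35 (limma adjusted p = 0.000973). The 4-week and saline libraries overlapped for Gzma and Jchain. The list had 7 of 25 members higher and 1 lower; the count higher was 3 without LPS library 3, 3 without 4-week library 1 and 4 without the unnumbered 4-week library. Of 24 endothelial genes 1 was higher and 1 lower, where 7.67% of all genes were called higher and 8.37% lower. The single lower gene was Aplnr, the apelin receptor. Aplnr was lower after LPS, with a log2 fold change of -1.67 ± 0.32 (limma adjusted p = 0.00563), and its adjusted p was 0.0586 without LPS library 3 and 0.0766 without the unnumbered 4-week library. Higher was Car4, a carbonic anhydrase of lung capillaries, with 77.6, 93.7 and 85.5 FPKM after LPS, against 15.7 and 26.4 at 4 weeks of bleomycin. For Car4 the log2 fold change was 2.01 ± 0.28 (limma adjusted p = 0.000707). Pecam1, the CD31 protein used for depletion, had 70.2, 47.3 and 53.8 FPKM after LPS, 34.1 and 58.2 at 4 weeks of bleomycin and 81.4, 46.5 and 60 in saline and was not past the threshold. Pecam1 had a log2 fold change of 0.33 ± 0.30 (limma adjusted p = 0.485). Ptprc, which encodes the depleted CD45, had 12.6, 7.35 and 9.34 FPKM after LPS, 4.03 and 5.92 at 4 weeks of bleomycin and 6.82, 4.9 and 7.24 in saline. It was not past the threshold either, although its LPS libraries were above both 4-week libraries. For Ptprc the log2 fold change was 0.84 ± 0.29 (limma adjusted p = 0.0801). Ptprc did pass in 6 alternatives, at limma adjusted p-values of 0.0213 to 0.039, among them both median-ratio scaling and quantile normalization. The 6 include a fit with the replicate number as a block, in which 4-week library 1 alone stood for its group. Epcam itself had 25.9, 23 and 20.7 FPKM after LPS, 25.9 and 32.5 at 4 weeks of bleomycin and 39, 46.2 and 38.8 in saline. The LPS and 4-week libraries overlapped, and all 5 lay below every saline library. Epcam had a log2 fold change of -0.31 ± 0.25 (limma adjusted p = 0.418).

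**Figure D4:**
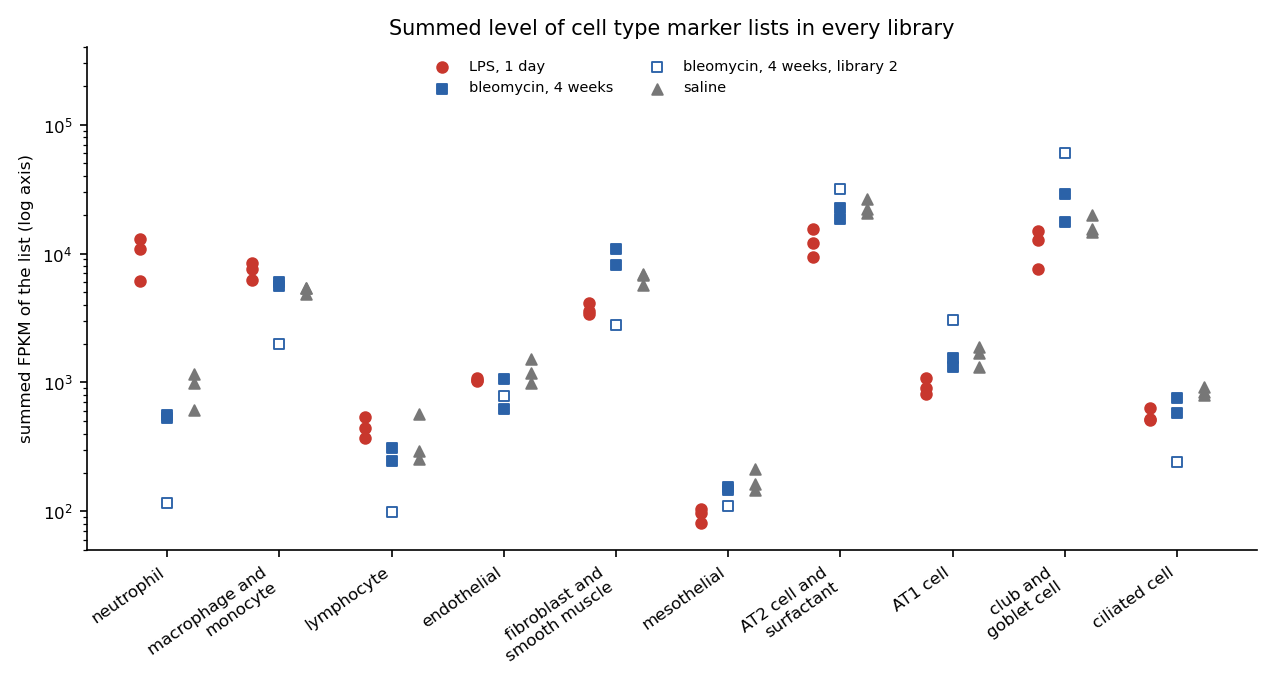
Summed FPKM (log axis) of the tested members of 10 cell type marker lists in each library: LPS (circles), bleomycin at 4 weeks (filled squares; library 2 open) and saline (triangles). The neutrophil sum was 6133 to 12884 FPKM after LPS, against 526 and 558 FPKM at 4 weeks, and the fibroblast and smooth muscle sum was 3404 to 4132 FPKM after LPS, against 8078 and 10818 FPKM at 4 weeks. In library 2 these sums were 116 FPKM and 2774 FPKM.

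Genes of fibroblasts and of the extracellular matrix formed the largest block below the 4-week level after LPS. Of 34 fibroblast and smooth muscle genes, 25 were lower, where 8.37% of all genes were called lower, and none was higher; 17 held throughout and the median was -1.71, the lowest of the 40 lists. Their sum was 3404 to 4132 FPKM in the LPS libraries, 8078 and 10818 FPKM in the 2 4-week libraries of the test and 5674 to 6881 FPKM in saline. The LPS libraries thus lay below saline and these 2 4-week libraries above it. In 4-week library 2 the sum was 2774 FPKM, below every LPS library. With that library kept in, in the fit of 6 libraries, 0 of the genes were called lower and the median was -0.54. Col1a1, a chain of type I collagen, had 119, 100.3 and 60.5 FPKM after LPS, against 344 and 252 at 4 weeks of bleomycin and 119.6, 144 and 181 in saline. Col1a1 gave a log2 fold change of -1.71 ± 0.34 (limma adjusted p = 0.00595). Dpt, dermatopontin, which binds decorin and collagen, had 141, 103 and 97.8 FPKM after LPS, against 532 and 465 at 4 weeks of bleomycin and 277, 329 and 314 in saline. Dpt was lower after LPS, with a log2 fold change of -2.14 ± 0.29 (limma adjusted p = 0.000648). Fbln1, the matrix glycoprotein fibulin 1, had 16.1, 16.4 and 8.32 FPKM after LPS, against 65.8 and 89.2 at 4 weeks of bleomycin and 62.4, 71.9 and 79.5 in saline. For Fbln1 the log2 fold change was -2.47 ± 0.32 (limma adjusted p = 0.000446). For Col1a1 and Dpt the 4-week libraries were above every saline library; for Fbln1 they lay among or beside the saline libraries, and the LPS libraries were below. Contractile smooth muscle genes of the list (Acta2, Tagln, Myh11, Cnn1, Des and Actg2) were among the 9 not past the threshold. The bead selection removes cells carrying CD90 or PDGFRα, so these genes come from a sample meant to hold few stromal cells, and the part of remaining stromal cells in them was not tested.

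Among the 10 genes furthest lower after LPS most encode matrix or secreted proteins. Fmod, fibromodulin (chr1:134037254-134048277, plus strand), a proteoglycan that controls collagen fibril width and binds TGF-β, had 2.01, 1.5 and 1.01 FPKM after LPS, against 42.4 and 31.5 at 4 weeks of bleomycin and 8.85, 10.1 and 8.32 in saline. The 3 groups did not overlap, with LPS lowest and 4 weeks highest. Fmod gave a log2 fold change of -3.93 ± 0.28 (limma adjusted p = 1.27e-05). Ltbp2, latent TGF-β binding protein 2, had 7.37, 4.8 and 3.61 FPKM after LPS, against 59.6 and 67.8 at 4 weeks of bleomycin and 9.95, 12.5 and 13.3 in saline. Ltbp2 was lower after LPS, with a log2 fold change of -3.41 ± 0.29 (limma adjusted p = 3.45e-05). Col28a1, a collagen chain, had 1.29, 0.787 and 0.232 FPKM after LPS, against 23.1 and 15 at 4 weeks of bleomycin and 1.48, 1.95 and 2.93 in saline. For Col28a1 the log2 fold change was -3.52 ± 0.32 (limma adjusted p = 4.9e-05). Cilp, a matrix protein first described in cartilage, had 1.69, 1.01 and 0.549 FPKM after LPS, against 20.1 and 18.1 at 4 weeks of bleomycin and 3.16, 4.48 and 6.41 in saline. Cilp gave a log2 fold change of -3.30 ± 0.29 (limma adjusted p = 3.9e-05). All 3 showed the same order as Fmod, although for Col28a1 LPS library 1 came close to the lowest saline library. C1qtnf3, a secreted protein of the C1q and TNF family, had 0.313, 0.237 and 0.221 FPKM after LPS, against 14.4 and 14.1 at 4 weeks of bleomycin. Pamr1, a secreted protein with a peptidase-like domain, had 2.68, 2.41 and 1.06 FPKM after LPS, against 24.8 and 24.5 at 4 weeks of bleomycin. Clec3b, the plasminogen-binding protein tetranectin, had 71.9, 77.8 and 34.2 FPKM after LPS, against 591 and 437 at 4 weeks of bleomycin. Mamdc2, a secreted proteoglycan, had 15.6, 7.19 and 7.91 FPKM after LPS, against 98 and 127 at 4 weeks of bleomycin. In 4-week library 2 Fmod had 14.2 FPKM and Ltbp2 22.6 FPKM, above every LPS library, while C1qtnf3, Col28a1 and Cilp were listed at 0.

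The matrix and TGF-β response list had 19 of 36 genes lower after LPS and 3 higher. For comparison, 8.37% of all genes were called lower and 7.67% higher. The count lower was 9 without LPS library 3, 12 without 4-week library 1 and 12 without the unnumbered 4-week library, and 9 genes held in every such fit. Tgfb3, a TGF-β ligand, had 9.02, 9.41 and 5.34 FPKM after LPS, against 71.5 and 43.8 at 4 weeks of bleomycin and 28, 34 and 31.9 in saline. Tgfb3 was lower after LPS, with a log2 fold change of -2.71 ± 0.31 (limma adjusted p = 0.000208). Serpine2, an inhibitor of thrombin and plasminogen activators, had 13.3, 12.2 and 8.16 FPKM after LPS, against 50 and 57.6 at 4 weeks of bleomycin and 25.8, 30.3 and 28.2 in saline. For Serpine2 the log2 fold change was -2.19 ± 0.27 (limma adjusted p = 0.00033). Both were above saline at 4 weeks and below it after LPS. The members higher after LPS were Timp1, Tgfbi and Tgfb1. Timp1, an inhibitor of matrix metalloproteases, had 707, 1434 and 1060 FPKM after LPS, against 129 and 102 at 4 weeks of bleomycin and 41, 46.2 and 55.6 in saline, so it stood above saline in both injuries. Timp1 gave a log2 fold change of 3.15 ± 0.37 (limma adjusted p = 0.000226). Tgfbi, a TGF-β-induced adhesion protein that macrophages also make, had 275, 291 and 246 FPKM after LPS, against 34.3 and 39.5 at 4 weeks of bleomycin and 47.4, 43 and 49.8 in saline, with the 4-week libraries below saline. Tgfbi was higher after LPS by 2.84 ± 0.26 on the log2 scale (limma adjusted p = 4.9e-05). The ligand Tgfb1 had 29.6, 48.5 and 31.1 FPKM after LPS, against 14 and 15.2 at 4 weeks of bleomycin. For Tgfb1 the log2 fold change was 1.23 ± 0.28 (limma adjusted p = 0.0124), and its adjusted p was 0.0552 without LPS library 3, 0.0829 without 4-week library 1 and 0.0504 without the unnumbered 4-week library. Mesothelial genes, of the sheet that covers the lung, gave 3 lower of 9 (Upk1b, Upk3b and Cldn15) and none higher. There were 6 lower without LPS library 1. Upk1b had 9.41, 10.7 and 6.54 FPKM after LPS, against 33.2 and 43.6 at 4 weeks of bleomycin and 38.3, 40.2 and 36.9 in saline. Upk1b gave a log2 fold change of -2.01 ± 0.28 (limma adjusted p = 0.000691).

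Complement genes were called in both directions, with 4 of 20 higher (Cfb, Cfp, C3ar1 and C1qb) and 7 lower after LPS. The shares of all genes were 7.67% and 8.37%. With any library left out 3 higher and 1 lower, Hc, held. C1qb did not hold: its limma adjusted p was 0.0256, but 0.127 without LPS library 3 and 0.0513 with median-ratio scaling. Besides Cfb, Cfp, the stabiliser of the alternative pathway convertase known as properdin, had 68.8, 145 and 87.5 FPKM after LPS, against 8.96 and 10.2 at 4 weeks of bleomycin and 9.76, 8.13 and 10.9 in saline. Cfp was higher after LPS by 3.20 ± 0.32 on the log2 scale (limma adjusted p = 8.05e-05). Hc (chr2:34983331-35061438, minus strand), which encodes complement C5 and in lung is made by AT2 cells, had 8.79, 4.91 and 5.93 FPKM after LPS, against 72.5 and 107 at 4 weeks of bleomycin and 102, 140.0 and 124 in saline. The LPS libraries were far below all others, including 4-week library 2 with 29.5 FPKM, and the 4-week and saline libraries overlapped. For Hc the log2 fold change was -3.60 ± 0.30 (limma adjusted p = 2.71e-05). The count of complement genes lower was 1 without LPS library 3, 4 without 4-week library 1 and 1 without the unnumbered 4-week library. It was 4 with median-ratio scaling.

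Surfactant and other AT2 genes were called lower more often than higher. Of 25 tested, 5 were lower (Hc, S100g, Lgi3, Cxcl15 and Nkx2-1) and 2 were higher (Fabp5 and Chil1), where 8.37% of all genes were called lower and 7.67% higher, with a median of -0.53; the count lower was 9 without LPS library 1, 3 without LPS library 3, 3 without 4-week library 1 and 3 without the unnumbered 4-week library, and 3 held throughout. Under quantile normalization 11 were lower, and with median-ratio scaling 3. Those that held, besides Hc, were S100g and Lgi3. S100g, a calcium-binding protein, had 42, 61.3 and 50.9 FPKM after LPS, against 266 and 177 at 4 weeks of bleomycin and 184, 248 and 194 in saline. S100g gave a log2 fold change of -2.07 ± 0.29 (limma adjusted p = 0.000756). Lgi3, a secreted protein enriched in AT2 cells, had 16.8, 23.7 and 13.2 FPKM after LPS, against 46.7 and 53.1 at 4 weeks of bleomycin and 71.5, 93.5 and 79.5 in saline. Lgi3 was lower after LPS, with a log2 fold change of -1.47 ± 0.28 (limma adjusted p = 0.00541). For Lgi3 both injuries lay below saline, LPS the further. Fabp5, a fatty acid carrier, and Chil1, a chitinase-like protein, lost their calls when a library was left out: Fabp5 had an adjusted p of 0.105 without LPS library 3, 0.0793 without 4-week library 1 and 0.213 without the unnumbered 4-week library from limma, and Chil1 of 0.0562 without LPS library 3, 0.15 without 4-week library 1 and 0.0814 without the unnumbered 4-week library. Sftpc, surfactant protein C, had 1774, 4508 and 3262 FPKM after LPS, against 12988 and 8895 at 4 weeks of bleomycin and 10854, 14144 and 11008 in saline. All LPS libraries were below all others, and the difference was just outside the threshold. Sftpc had a log2 fold change of -1.86 ± 0.57 (limma adjusted p = 0.0502). Sftpc passed in 11 alternatives, at limma adjusted p-values of 0.00127 (equal totals) to 0.0467 (pseudocount 0.1), with a negative sign in each. The 11 include a fit with the replicate number as a block, in which 4-week library 1 alone stood for its group.

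AT1 genes had 5 of 22 lower (Limch1, Rtkn2, Cldn18, Col4a4 and Igfbp6), none higher and a median of -0.64; the count was 11 without LPS library 1, 2 without LPS library 3 and 1 without 4-week library 1. Cldn18, the claudin that seals the alveolar lining, had 36.4, 25.5 and 32.9 FPKM after LPS, against 81.3 and 75 at 4 weeks of bleomycin and 60.7, 87.6 and 91.4 in saline. Cldn18 gave a log2 fold change of -1.29 ± 0.26 (limma adjusted p = 0.00621), and its adjusted p was 0.0566 without 4-week library 1. Limch1, an actomyosin regulator that stromal cells also express and that stands in the fibroblast list too, had 28.4, 16.8 and 20.9 FPKM after LPS, against 101 and 65.1 at 4 weeks of bleomycin. It was the AT1 gene whose call held with any library left out. Limch1 was lower after LPS, with a log2 fold change of -1.86 ± 0.30 (limma adjusted p = 0.00176). Ager, the receptor RAGE that marks AT1 cells, had 158, 161 and 176 FPKM after LPS, 275 and 193 at 4 weeks of bleomycin and 144, 242 and 280.1 in saline and was not past the threshold. For Ager the log2 fold change was -0.48 ± 0.28 (limma adjusted p = 0.282). Epithelial junction genes gave 3 lower (Cldn18, Cldn4 and Ocln) and 1 higher (Tjp3) of 23, none of which held throughout, with a median of -0.65. Over all genes 8.37% were called lower and 7.67% higher. The count lower was 10 without LPS library 1.

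Club and goblet cell genes went both ways, with 7 of 18 higher, 6 lower and a median of 0.00 that changed sign between scalings of the libraries. The count higher was 4 without 4-week library 1, and the count lower was 3 without LPS library 3 and 2 without the unnumbered 4-week library; 4 higher and 2 lower held throughout. The higher members included Reg3g, Pigr and Tff2. Reg3g, an antibacterial lectin, had 79.5, 76.8 and 90.4 FPKM after LPS, against 10.7 and 14.7 at 4 weeks of bleomycin and 11.4, 20.9 and 6.02 in saline. Reg3g gave a log2 fold change of 2.61 ± 0.25 (limma adjusted p = 6.54e-05). Pigr, the receptor that carries IgA across epithelium, had 85.5, 77.7 and 92.3 FPKM after LPS, against 16.1 and 14.1 at 4 weeks of bleomycin and 8.45, 13.6 and 10.2 in saline. Pigr was higher after LPS by 2.42 ± 0.24 on the log2 scale (limma adjusted p = 8.05e-05). Tff2, a trefoil peptide of mucus, had 33.3, 46 and 45.1 FPKM after LPS, against 9.27 and 10.9 at 4 weeks of bleomycin. For Tff2 the log2 fold change was 1.92 ± 0.26 (limma adjusted p = 0.00054). In 4-week library 2 Pigr had 172 FPKM and Tff2 49.2 FPKM, both above every LPS library, while Reg3g was listed at 0. The lower members included Cyp2f2 and Scgb3a2. Cyp2f2, the club cell cytochrome P450 that activates naphthalene, had 104, 80 and 64.1 FPKM after LPS, against 761 and 861 at 4 weeks of bleomycin and 577, 795 and 721 in saline. Cyp2f2 gave a log2 fold change of -3.30 ± 0.30 (limma adjusted p = 5.05e-05). Scgb3a2, a secretoglobin, had 101, 85.9 and 139.5 FPKM after LPS, against 1032 and 551 at 4 weeks of bleomycin and 474, 691 and 477 in saline. Scgb3a2 was lower after LPS, with a log2 fold change of -2.81 ± 0.35 (limma adjusted p = 0.000372). The LPS libraries of both were below both 4-week libraries and all saline libraries; 4-week library 2 had 57.7 FPKM of Cyp2f2, below the LPS libraries, and 323 FPKM of Scgb3a2, above them. The main club cell secretoglobin, Scgb1a1, had 4648, 11029 and 9311 FPKM after LPS, 23855 and 13120 at 4 weeks of bleomycin and 10682, 14835 and 11399 in saline and was not past the threshold. For Scgb1a1 the log2 fold change was -1.18 ± 0.67 (limma adjusted p = 0.261). None of the 27 ciliated cell genes passed it (limma), with a median of -0.34; 1 was higher and 5 were lower at an unadjusted p under 0.05, and 6 were called lower without LPS library 1. Foxj1, the master regulator of motile cilia, had 46.7, 37.7 and 41.5 FPKM after LPS, 64.1 and 48.9 at 4 weeks of bleomycin and 51.4, 66.3 and 57.3 in saline. Foxj1 had a log2 fold change of -0.41 ± 0.25 (limma adjusted p = 0.299).

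Genes of the transitional alveolar state, in which AT2 cells pause on the way to AT1 cells after injury, gave no common direction: 4 of 26 were higher after LPS (Orm1, Plaur, Tnip3 and Lgals3), 6 were lower and the median was 0.00, with a sign that changed between scalings. Among all genes tested 7.67% were called higher and 8.37% lower. The count lower was 2 without LPS library 3, 2 without 4-week library 1 and 3 without the unnumbered 4-week library; 3 higher and 1 lower held throughout, and Lgals3 did not, with a limma adjusted p of 0.0649 without LPS library 2, 0.171 without LPS library 3, 0.123 without 4-week library 1 and 0.353 without the unnumbered 4-week library. Krt8, the keratin that marks this state, had 92.2, 128 and 77.6 FPKM after LPS, 137 and 142 at 4 weeks of bleomycin and 203, 224 and 189.5 in saline. For Krt8 the log2 fold change was -0.52 ± 0.29 (limma adjusted p = 0.252). Its partner Krt18 had 71.6, 122 and 78.4 FPKM after LPS, 154 and 153 at 4 weeks of bleomycin and 222, 242 and 196 in saline. Krt18 had a log2 fold change of -0.79 ± 0.30 (limma adjusted p = 0.0983). Neither was past the threshold, and all LPS libraries were below the 4-week libraries, which were in turn below saline. Cdkn1a, the cell cycle inhibitor p21, had 201, 203 and 267 FPKM after LPS, 193 and 193 at 4 weeks of bleomycin and 174, 118 and 122 in saline, so both injuries stood above saline. For Cdkn1a the log2 fold change was 0.20 ± 0.28 (limma adjusted p = 0.665), and the sign of the difference turned under quantile normalization (-0.16). Plaur, the urokinase receptor, had 90.6, 100.4 and 106 FPKM after LPS, against 25.3 and 34.3 at 4 weeks of bleomycin. Plaur was higher after LPS by 1.71 ± 0.26 on the log2 scale (limma adjusted p = 0.00112). Lower after LPS was Sprr1a, a small proline-rich protein of stressed epithelium, with 2.99, 4.23 and 4.66 FPKM after LPS, against 14.6 and 11.4 at 4 weeks of bleomycin and 5.63, 9.32 and 5.06 in saline. Its 4-week libraries were above all saline libraries. For Sprr1a the log2 fold change was -1.50 ± 0.27 (limma adjusted p = 0.00383), and its adjusted p was 0.056 without 4-week library 1. Signalling genes of the EGF, FGF, Notch and Wnt pathways were lower in 10 of 35 and higher in none; the count was 18 without LPS library 1, 2 without LPS library 3, 2 without 4-week library 1 and 3 without the unnumbered 4-week library. The member that held throughout was Bmp4, a bone morphogenetic protein that the list also holds, and no EGF, FGF, Notch or Wnt gene did. Bmp4 had 11, 9.06 and 10.1 FPKM after LPS, against 29.9 and 35.2 at 4 weeks of bleomycin and 26.5, 30.7 and 26.6 in saline. Bmp4 gave a log2 fold change of -1.60 ± 0.24 (limma adjusted p = 0.0012).

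Detoxifying enzymes formed a further group that was lower after LPS. Of 31 xenobiotic and aldehyde metabolism genes, 16 were lower and 1 was higher (Sult1a1, a sulfotransferase), with a median of -0.91. The count lower was 9 without LPS library 3, 9 without 4-week library 1 and 7 without the unnumbered 4-week library, and 6 held in every fit with a library left out. Ephx1, the microsomal epoxide hydrolase, had 28.7, 28.7 and 18.3 FPKM after LPS, against 123 and 130.1 at 4 weeks of bleomycin and 101, 97.6 and 94.3 in saline. Ephx1 was lower after LPS, with a log2 fold change of -2.31 ± 0.27 (limma adjusted p = 0.000254). Against saline the list's median was -1.30 after LPS and -0.21 at 4 weeks of bleomycin. Sult1a1 had 45.9, 50.5 and 43.4 FPKM after LPS, against 22.7 and 23.7 at 4 weeks of bleomycin. For Sult1a1 the log2 fold change was 0.97 ± 0.24 (limma adjusted p = 0.0179), and its adjusted p was 0.067 without LPS library 3, 0.159 without 4-week library 1 and 0.126 without the unnumbered 4-week library.

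**Figure D5:**
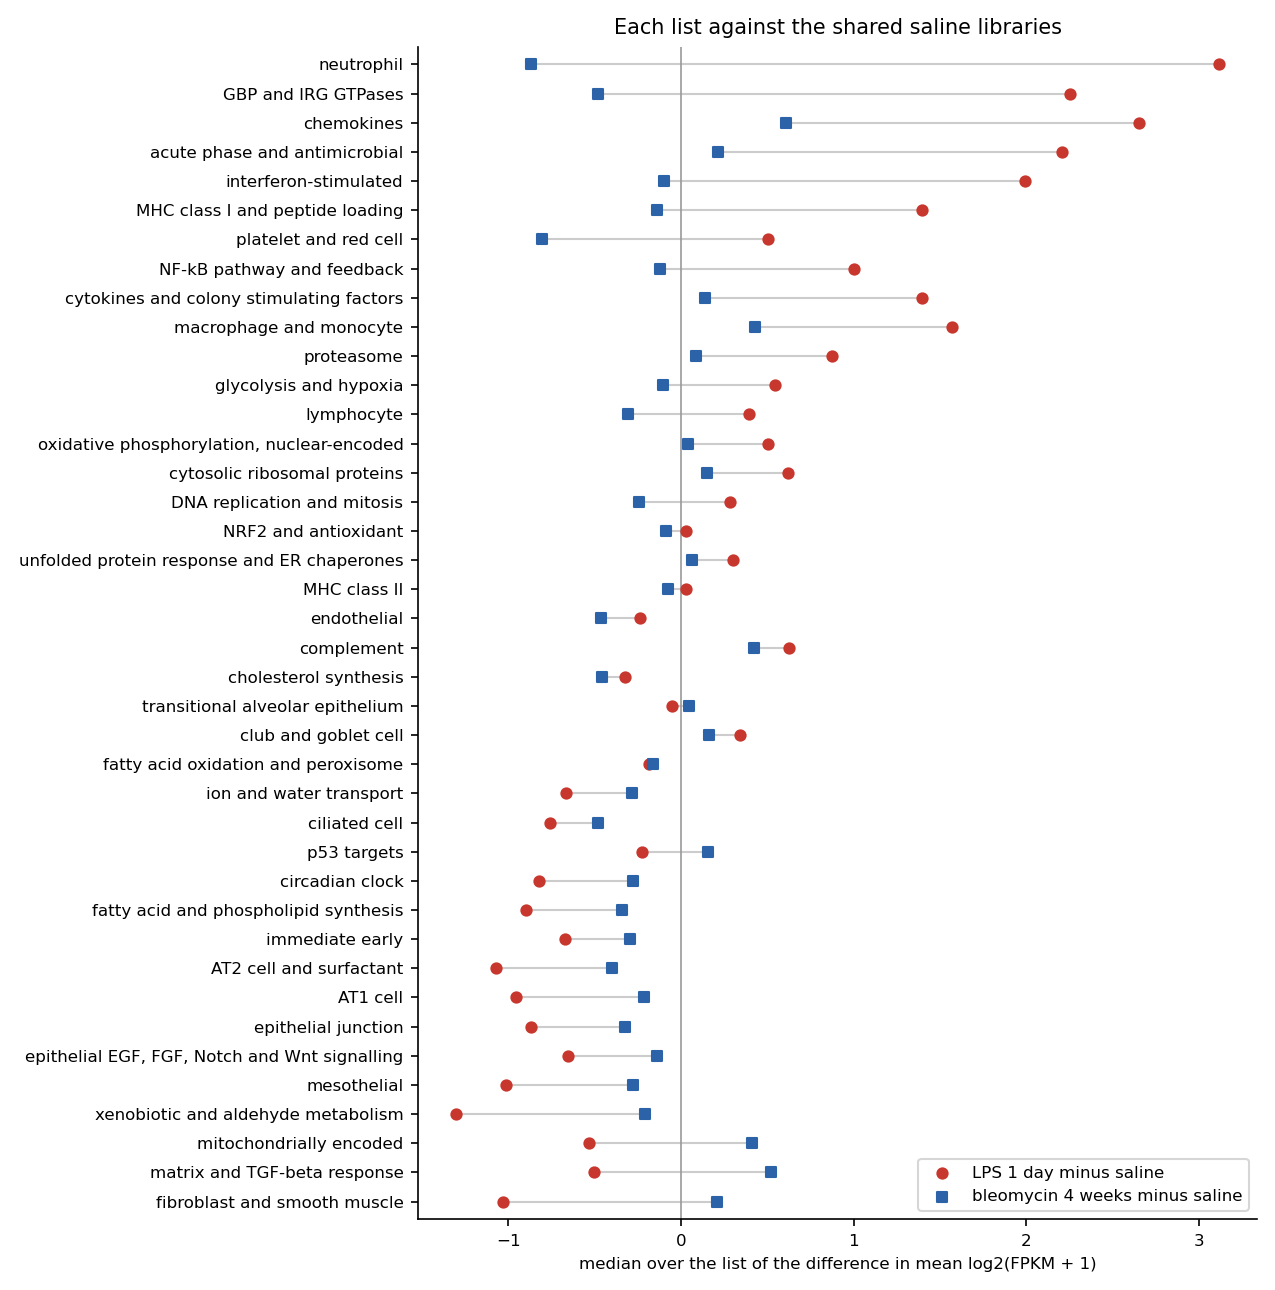
Median over each list's tested members of the difference in mean log2(FPKM + 1) from the 3 saline libraries, for LPS 1 day (circles) and bleomycin 4 weeks (squares; library 2 left out), with lists in the order of their LPS over bleomycin medians. Both values of a list use the same saline libraries; xenobiotic genes stood at -1.30 after LPS and -0.21 at 4 weeks, and neutrophil genes at 3.12 and -0.87.

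In energy and lipid metabolism a minority of each list passed the test. The shares over all genes tested were 7.67% called higher and 8.37% called lower. Of 24 glycolysis and hypoxia genes 8 were higher after LPS and none was lower, with a median of 0.73; the count was 5 without LPS library 3 and 3 without 4-week library 1. Hk3, a hexokinase typical of myeloid cells, had 12.1, 21.7 and 14.6 FPKM after LPS, against 0.75 and 1.1 at 4 weeks of bleomycin. Hk3 gave a log2 fold change of 3.12 ± 0.30 (limma adjusted p = 6.18e-05). Slc16a3, a lactate exporter, had 26.5, 42.7 and 31.7 FPKM after LPS, against 5.44 and 5.31 at 4 weeks of bleomycin. Slc16a3 was higher after LPS by 2.42 ± 0.27 on the log2 scale (limma adjusted p = 0.000156). The enolase Eno1 had 65.4, 108 and 57.3 FPKM after LPS, against 16.2 and 23.4 at 4 weeks of bleomycin. For Eno1 the log2 fold change was 1.87 ± 0.32 (limma adjusted p = 0.00235). Scd1, the desaturase that makes monounsaturated fatty acids, had 126, 66.4 and 89.3 FPKM after LPS, against 375 and 439 at 4 weeks of bleomycin and 349.9, 551 and 478 in saline, and was lower after LPS. Scd1 gave a log2 fold change of -2.15 ± 0.32 (limma adjusted p = 0.0011). Dgat2, which completes triglyceride synthesis, went the other way with 27.4, 41.2 and 25.6 FPKM after LPS, against 2.82 and 3.58 at 4 weeks of bleomycin and 4.86, 3.86 and 4.61 in saline. Dgat2 was higher after LPS by 2.92 ± 0.28 on the log2 scale (limma adjusted p = 6.31e-05). Fasn, fatty acid synthase, had 20.9, 20.4 and 12.5 FPKM after LPS, 27.8 and 37.5 at 4 weeks of bleomycin and 44.1, 49.3 and 43.4 in saline and was not past the threshold. Fasn had a log2 fold change of -0.85 ± 0.29 (limma adjusted p = 0.0733). Fatty acid synthesis genes gave 4 lower and 1 higher of 22 (Scd1, Scd2, Me1 and Fads2 lower, Dgat2 higher). The count lower was 10 without LPS library 1, 1 without LPS library 3, 2 without 4-week library 1 and 1 without the unnumbered 4-week library; Scd1 and Dgat2 held throughout. None of the 13 genes of the mitochondrial genome passed the threshold (limma), with a median of -0.96 and 2 lower at an unadjusted p under 0.05. Without LPS library 1, 6 were called lower, and without LPS library 2 the median was -0.40. Nor did any of the 52 ribosomal protein genes (limma), with a median of 0.43 and 5 higher at an unadjusted p under 0.05; 14 were called higher without LPS library 1, and the median was 0.19 to 0.74 with a library left out.

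Stress, growth and rhythm genes gave smaller sets. Slc7a11, the cystine importer that feeds glutathione synthesis, had 11.9, 9.24 and 7.65 FPKM after LPS, against 0.44 and 0.729 at 4 weeks of bleomycin. Slc7a11 gave a log2 fold change of 2.73 ± 0.27 (limma adjusted p = 8.21e-05). Gsr, glutathione reductase, had 67.3, 53.9 and 67.8 FPKM after LPS, against 15.4 and 19.7 at 4 weeks of bleomycin. Gsr was higher after LPS by 1.79 ± 0.25 on the log2 scale (limma adjusted p = 0.000778). The NRF2 and antioxidant list to which they belong had 7 higher and 4 lower (Sod3, Cat, Gstm1 and Me1) of 32. Among all genes 7.67% were called higher and 8.37% lower. The count higher was 12 without LPS library 1, 4 without LPS library 3, 3 without 4-week library 1 and 3 without the unnumbered 4-week library, and the count lower was 7 without LPS library 1, 0 without LPS library 3, 0 without 4-week library 1 and 0 without the unnumbered 4-week library; 3 higher and 0 lower held throughout. Mcm5, part of the DNA replication helicase, had 7.44, 9.04 and 6.5 FPKM after LPS, against 1.89 and 2.03 at 4 weeks of bleomycin and 3.21, 2.5 and 2.47 in saline. For Mcm5 the log2 fold change was 1.54 ± 0.26 (limma adjusted p = 0.00234). Mki67, which marks dividing cells, had 4.19, 4.64 and 2.95 FPKM after LPS, against 0.953 and 1.14 at 4 weeks of bleomycin and 1.78, 1.14 and 1.13 in saline. Mki67 gave a log2 fold change of 1.25 ± 0.25 (limma adjusted p = 0.00703), and its adjusted p was 0.09 without 4-week library 1 and 0.0531 without the unnumbered 4-week library. Eda2r, a p53 target of the TNF receptor family, had 0.596, 0.137 and 0.214 FPKM after LPS, against 2.79 and 2.87 at 4 weeks of bleomycin and 0.728, 0.671 and 0.668 in saline, with both 4-week libraries above all others. Eda2r was lower after LPS, with a log2 fold change of -1.56 ± 0.22 (limma adjusted p = 0.00075). Nr1d1, the clock repressor REV-ERBα, had 8.18, 12.8 and 6.69 FPKM after LPS, against 37.1 and 42.8 at 4 weeks of bleomycin and 65, 61.6 and 41.6 in saline. The LPS libraries were lowest, and the highest 4-week library lay among the saline libraries. For Nr1d1 the log2 fold change was -2.04 ± 0.29 (limma adjusted p = 0.000815). Egr1, an immediate early transcription factor, had 221, 135 and 192 FPKM after LPS, against 375 and 365 at 4 weeks of bleomycin and 598, 572 and 532 in saline. Egr1 gave a log2 fold change of -1.05 ± 0.31 (limma adjusted p = 0.0433), and its adjusted p was 0.0795 without LPS library 2, 0.14 without LPS library 3, 0.223 without 4-week library 1 and 0.213 without the unnumbered 4-week library. At what hours the lungs were taken is not stated in the labels.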

How the data were processed

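Total RNA of EpCAM-selected lung cells was sequenced on an Illumina instrument. The authors deposited FPKM per gene and library in 1 table per treatment, each with the saline libraries. Per the submitters' processing notes, HISAT2, StringTie and build mm10 were used, with neither versions nor roles stated. Annotation, strand setting and read number are not given in the sources used, so depth is unknown and no counting interval can be given. Per the file headers, the deposited columns of log2 group means, fold change (ratio and log2), p-value and q-value are the authors' treatment against saline tests, and were not used for any result. There were 13755 genes in the LPS table, against 13667 in that of 4 weeks; the saline values were identical in both (largest difference 0), so both share 1 scale. 1 line of each table had been emptied.

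Libraries were grouped by title; the unnumbered 4-week column was used as a library of its group. The log2(FPKM + 1) values of the 3 LPS and 2 4-week libraries were tested with limma 3.58.1 (R 4.3.3, trended eBayes), without a replicate block, where 2 or more libraries reached 1 FPKM, with Benjamini-Hochberg adjustment over 12377 genes and a threshold of 0.05. The limma test was also run on simulated data with independent noise for each gene. Such data hold no deviation common to a whole library, so that run cannot show how calls depend on single libraries. In limma a gene's spread is drawn toward that of all genes. An exact permutation test of 3 against 2 libraries cannot go below 0.1. Alternatives were the fits with library 2, with saline and with all libraries, a replicate block, another pseudocount, filter and scaling, and leaving out each library. The 40 gene lists, the members and the rule for named genes were chosen with earlier results of these data known; lists are described by counts and medians and were not tested. Named were the 10 furthest genes in each direction (higher group averaging 10 FPKM or more, no overlap), up to 3 called members per list and direction with the smallest adjusted p, members against a list's majority, and fixed genes; other members named where a count was 5 or fewer were chosen after their values were seen. Of the lists Itgam has 2 identifiers, of which the lower-numbered one was used. Not all genes of the lists are analysed here. Gene positions are from GENCODE on GRCm38, the same build as mm10.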

Additional observations from a re-analysis of the deposited data

Results flagged for a closer look

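The genes below were selected because all 3 LPS libraries lay on one side of all 3 saline libraries and both 4-week libraries on the other; the difference between the injuries is the limma test of LPS over bleomycin. Both comparisons use the same saline libraries. Among 110 genes of the text that passed the threshold 35 had this pattern. Most of the 110 were named for a large fold change or a small adjusted p, which favours the pattern. Its share over all genes called is not given here, so 35 of 110 cannot be called many or few.

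The log2 fold changes of LPS over bleomycin of the 19 genes above saline after LPS and below it at 4 weeks were Acod1 6.34, Fpr2 6.05, Retnlg 5.98, Il1f9 5.34, Arg1 4.97, Fpr1 4.93, Serpina3m 4.42, Igtp 3.59, Dgat2 2.92, Tgfbi 2.84, Slc16a3 2.42, Car4 2.01, Nkg7 2.00, Gsr 1.79, Mcm5 1.54, Chil1 1.52, Fabp5 1.02, Tjp3 0.98 and Sult1a1 0.97. Those of the 16 genes below saline after LPS and above it at 4 weeks were Fmod -3.93, C1qtnf3 -3.60, Col28a1 -3.52, Ltbp2 -3.41, Mamdc2 -3.40, Cilp -3.30, Pamr1 -3.11, Tgfb3 -2.71, Ephx1 -2.31, Serpine2 -2.19, Dpt -2.14, Col1a1 -1.71, Eda2r -1.56, Apoe -1.54, Sprr1a -1.50 and Sod3 -1.12. The mean log2 differences of Fmod from saline were -2.03 after LPS and 1.90 at 4 weeks of bleomycin. For Apoe these were -0.94 and 0.60. The selection asked for no minimum margin, and some margins were narrow. For Arg1 the higher 4-week library had 1.973 FPKM, against 1.976 FPKM in the lowest saline library. For Fabp5 these levels were 36.2 and 36.5 FPKM. Col1a1 after LPS also came close to its lowest saline library. In 4-week library 2 some of the selected genes were listed at 0, and their levels there are no part of the selection.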

How the results depend on the processing

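The number of genes called moved most with the libraries in the fit. With 4-week library 2 kept in, 85 genes were called (82 higher and 3 lower after LPS) in the fit of 6 libraries, and 940 (713 higher, 227 lower) in that of 12. Adding the saline libraries gave 3109 genes (1400 higher, 1709 lower), and the fit of 11 libraries 3964 (1740 higher, 2224 lower). Leaving out 1 library gave 902 to 3612 genes, 541 to 1298 of them higher and 330 to 2314 lower. A minimum of 5 FPKM left 638 genes called lower. In every alternative each gene called in common with the 1985 kept its direction; the cause of the changes in number was not tested.

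Scaling the libraries by median ratio moved the median of all genes to 0.01, against -0.11 as reported, and scaling to equal totals to -0.20; the share of calls higher after LPS was 55.5% and 43.5% under these, against 47.8%. Of 110 genes of the text past the threshold, 11 lost their call with median ratios, 4 with equal totals, 2 with quantile normalization and 84 with 4-week library 2 in the fit of 6 libraries. Between these scalings the medians of 8 lists changed sign, all of them within 0.34 of 0: MHC class II, NRF2 and antioxidant, club and goblet cell, complement, endothelial, fatty acid oxidation, transitional alveolar epithelium and unfolded protein response. No chemokine gene was called lower with median ratios, against 2 as reported. With 4-week library 2 kept in, the log2 fold changes of S100g (0.52), Ctsk (1.25), Cat (0.79), Me1 (0.44), Epcam (1.32), Ager (0.0091), Foxj1 (1.53) and Krt8 (0.13) changed sign, in both fits that hold it. Cdkn1a did so under quantile normalization (-0.16) and Pecam1 without 4-week library 1 (-0.047; 0.709 at most over the 5 fits with a library left out).

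Replicate numbers did not pair the LPS, saline and 2-week bleomycin libraries of the series. Deviations of same-numbered libraries from their group means correlated by -0.155 to 0.114, and those of differently numbered ones by -0.247 to 0.255. The 4-week libraries were not part of these correlations, so pairing in that group was not examined. With the replicate number as a block in the fit of 11 libraries, the unnumbered library was alone in its block. The LPS over bleomycin difference of that fit therefore rested on 4-week library 1, and its median over all genes was -0.02. Depth is unknown, which limits what can be said of genes near 0.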

Other observations

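Platelet and red cell genes were higher after LPS in 6 of 9, with a median log2 fold change of 1.28, and the count was 1 without LPS library 3 and 1 without 4-week library 1. Pf4, the platelet chemokine CXCL4, had 58.4, 74.6 and 74.3 FPKM after LPS, against 14.9 and 14.3 at 4 weeks of bleomycin and 20.2, 13.4 and 13.2 in saline. Pf4 was higher after LPS by 2.16 ± 0.25 on the log2 scale (limma adjusted p = 0.00019). Ion and water transport genes gave 3 higher and 1 lower of 21, of which 1 higher and 0 lower held with any library left out, among them Slc26a4, the anion exchanger pendrin, with 25.8, 26.9 and 16.5 FPKM after LPS, against 6.38 and 6.79 at 4 weeks of bleomycin and 3.06, 4.87 and 4.38 in saline. For Slc26a4 the log2 fold change was 1.64 ± 0.28 (limma adjusted p = 0.0024). Pendrin RNA was above saline in all 5 libraries of the test, which leaves out 4-week library 2, and furthest above it after LPS.

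Over all genes tested, 7.67% were called higher and 8.37% lower after LPS. DNA replication and mitosis genes gave 5 higher of 24, of which 1 held in every fit with a library left out, and unfolded protein response genes 4 higher of 26, of which 0 held. The p53 target list had 2 higher and 3 lower of 23, the circadian clock list 1 higher and 3 lower of 19, and the immediate early list 3 lower of 24. Of these, 1 circadian gene called lower held in every fit with a library left out, and no call of the p53 and immediate early lists did. Cholesterol synthesis gave 2 higher of 23, fatty acid oxidation 3 lower of 26, and nuclear-encoded oxidative phosphorylation 1 higher of 29. None of the calls of these last 3 lists held in every fit with a library left out.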
